A study of Mus musculus with 16 samples.

Results

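The 12 arrays of crushed sciatic nerve were compared with the 4 arrays of uncrushed nerve, so that every gene measured could be placed by what it did after injury whatever the strain or the day, including the genes that stayed where they were. Members were chosen by array title alone, injured or uninjured, and all 16 arrays of the series entered. Of 18193 genes with a probe set of their own, 14545 were bright enough to be tested. The question asked of each gene was whether its mean level differed between injured and uninjured nerves, against an error that includes differences among injured nerves. A gene can pass although its injured arrays differ among themselves by more than the shift.

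Mice were C57BL/6, genotype wild type, or C57BL/6 OlaHsd-Wlds, genotype WldS mutant and called WldS here, aged 8 to 12 weeks, with 56 mice per strain. The left sciatic nerve was lesioned by microcrush at mid-thigh, and the naive mice of day 0 had no lesion. From the distal stump a segment of 4 mm, between 1 and 5 mm beyond the lesion, was freed of connective tissue. Each of the 6 injured groups (each strain at day 3, 7 and 14) and both uninjured groups (1 per strain) gave 2 arrays from pooled stumps, so p-values rest on pools and not on mice. The error of the shared comparison holds the spread between pools and also differences between days and between strains in the response. No sham-operated group is among the samples, so the lesion and the surgery around it cannot be told apart.

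When a peripheral axon is severed or crushed, its distal part degenerates, a process called Wallerian degeneration. The Schwann cells that wrapped it in myelin leave the myelinating state, divide and take on a repair state, macrophages enter to clear myelin debris, and axons later regrow into the stump. In WldS mice a fusion protein that includes the NAD-synthesizing enzyme Nmnat1 delays the breakdown of severed axons. In pieces of whole nerve, fewer cells of a type and less RNA per cell cannot be told apart.

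Levels are log2 signals, on which a difference of 1 is a 2-fold change, and ± is a standard error. The deposited values had array medians between 6.42 and 6.49. A first principal component with 51.1% of the variance placed the 4 uninjured arrays together at one end. The tissue carried its label, since the myelin genes Mbp and Pmp22 read 14.2 to 14.4 and 14.0 to 14.2 in the uninjured arrays, and the Schwann cell factor Sox10 12.1 to 12.2. The 3'/5' index of control probe sets, which rises as RNA breaks down, ran from 2.29 to 3.81 in uninjured and from 1.63 to 3.23 in injured arrays. The index moved with injury, since 11 of the 12 injured arrays (at most 2.22) lay below all 4 uninjured ones, and its part in the differences was not tested beyond the fits given here. It was highest in WldS uninjured replicate 1 and WldS day 14 replicate 2, and counts without both, or with the index as a covariate, are given beside the lists they move most.

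Injury moved a large share of the genes, in both directions, and most by less than 2-fold. Of the 14545 genes, 3132 (21.5%) were called higher and 2637 (18.1%) lower in injured nerves by limma at an adjusted p below 0.05, together 5769 or 39.7%. Among them 673 rose and 438 fell by at least 1 on the log2 scale, 133 and 49 by at least 2, and 27 and 4 by at least 3, while 2512 of the calls were smaller than 0.5. The median difference over all genes was 0.00 and the median size 0.23, with the 5th percentile at -0.79 and the 95th at 0.98.

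Full separation of single arrays held for a part of the calls. For 2414 genes (16.6%) the 12 injured arrays all lay above (1316) or all below (1098) the 4 uninjured ones, and 2406 of these were among the 5769 called. Of the called genes, 93.2% had changed in the same direction in all 6 injured groups relative to their own strain's uninjured mean, against 46.5% of all genes. The calls and these directions come from the same values, so the share describes the calls and is no separate evidence for them. Without both arrays of high index, 2945 genes were higher and 2578 lower, and with the index as a covariate 2561 and 2359. With strain and day groups as a random block, which lets arrays of a group resemble each other (consensus correlation 0.449), 2302 were higher and 1797 lower. That is 28.2% of all genes called, the share beside which list counts from that fit are to be read. Which direction held the majority depended on the scaling. Median centring of the arrays gave 2814 higher and 3101 lower, with the median gene shifted to -0.04, and quantile normalization 2763 and 3160.

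**Figure D1:**
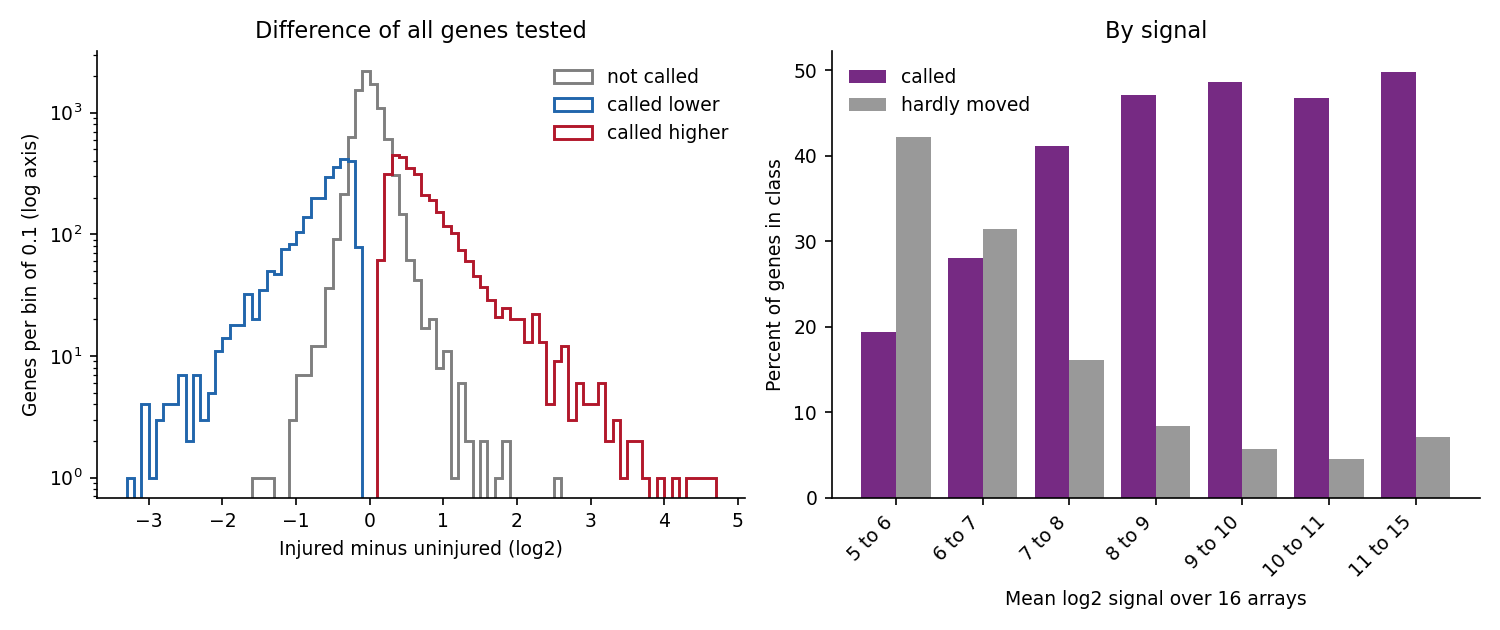
Left, number of genes by injured minus uninjured difference (log2, bins of 0.1, counts on a log axis), with separate outlines for genes called lower (blue), called higher (red) and not called (grey) by limma. Right, percent of genes called and percent that hardly moved, by mean log2 signal; the called share is lowest and the share that hardly moved highest, at 42.2%, in the dimmest class.

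The 12 largest rises included genes of cell division and of secreted proteins. Wif1, a secreted inhibitor of Wnt signals, headed the order. Its 4 uninjured arrays, always listed here as C57BL/6 replicates 1 and 2 and then WldS replicates 1 and 2, read 3.60, 3.65, 3.58 and 3.37, and its 12 injured arrays ran from 6.89 over a median of 8.25 to 9.22. No array of one kind came near the other, and the difference was 4.64 ± 0.40 (limma adjusted p = 4.53e-07). The uninjured mean of Wif1 lay below the filter on dim genes (log2 5.37), as did those of Cep55, Cdca5 and Arg1. The filter is a percentile of signal and not a measured floor, so these differences may be understated, which was not tested.

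Rrm2, the small subunit of the ribonucleotide reductase that makes DNA precursors, read 6.10, 5.89, 6.04 and 5.72 before injury and 9.61, 10.46 and 11.14 (lowest, median and highest) after it, a rise of 4.51 ± 0.26 or 22.8-fold (limma adjusted p = 1.27e-08). Mki67, the gene of the proliferation marker Ki-67, read 6.01, 6.72, 6.58 and 6.55 against 10.34, 10.75 and 11.48, a rise of 4.42 ± 0.21 (adjusted p = 1.42e-09). Every injured pool, also those of WldS nerves at day 3, thus stood more than 3 units above every uninjured pool for both genes. Cthrc1, a secreted protein that acts on collagen matrix, rose by 4.35 ± 0.43, Top2a, which untangles DNA before mitosis, by 4.15 ± 0.19, and the matrix glycoprotein Tnc (tenascin C) by 3.79 ± 0.23. Other mitotic genes among the 12 largest rises were Cep55 (3.96), Cks2 (3.68), Cdca5 (3.59) and Pbk (3.55). Sox4, a transcription factor of immature cells, rose by 3.62 ± 0.39, but its 6 other bright probe sets moved by only -0.22 to 1.78.

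Arg1, the arginine-degrading enzyme of some macrophages, was the least even of the 12. Its uninjured arrays read 4.95, 5.13, 4.68 and 5.09 and its injured arrays 6.01 to 11.54 with a median of 8.18. It rose by 3.43 ± 0.96 (limma adjusted p = 0.00944), with group changes of 6.12, 1.44 and 4.81 in C57BL/6 at day 3, 7 and 14 and of 5.04, 1.84 and 1.32 in WldS. All injured arrays were above all uninjured ones, but they spread widely.

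The genes that fell most were a mixed set of enzymes, secreted factors and membrane proteins of the resting nerve. Ddn (dendrin) read 11.83, 11.63, 12.11 and 11.81 before injury and 5.53, 9.53 and 10.77 after it, a difference of -3.23 ± 0.85 (limma adjusted p = 0.00638). Its group changes were -5.97, -5.49 and -0.97 in C57BL/6 at day 3, 7 and 14 and -2.41, -2.58 and -1.97 in WldS. Etnppl, which breaks down phosphoethanolamine, fell by 3.07 ± 0.26, Cnmd (chondromodulin), a membrane protein known from cartilage, was at -3.04 ± 0.46, and Inmt, a methyltransferase of indole amines, at -3.03 ± 0.36. Further down the order were Prr15 (-3.00), the growth factor gene Fgf4 (-2.86), Pdzph1 (-2.83), Mt3, a metal-binding metallothionein (-2.82), Fam178b (-2.79), Acss2, which makes acetyl-CoA from acetate (-2.75), and Adcy1, an adenylyl cyclase (-2.74). A second bright probe set of Prr15 (-0.05) and of Fam178b (0.03) did not share the fall. Injured C57BL/6 groups of Cnmd, Prr15, Fgf4 and Pdzph1 lay below the dim filter, so the size of their falls may be understated.

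Pon1, a paraoxonase, stood out for its evenness. Its uninjured arrays read 10.50, 10.36, 9.90 and 10.14 and its injured arrays 6.98, 7.27 and 7.51. The injured arrays of both strains and all days kept close together, well under the lowest uninjured array. Pon1 fell by 2.97 ± 0.12, or 7.81-fold (limma adjusted p = 7.8e-10, the lowest of the 12 falls), and the F test found no variation of its level among the 6 injured groups (adjusted p = 0.877).

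**Figure D2:**
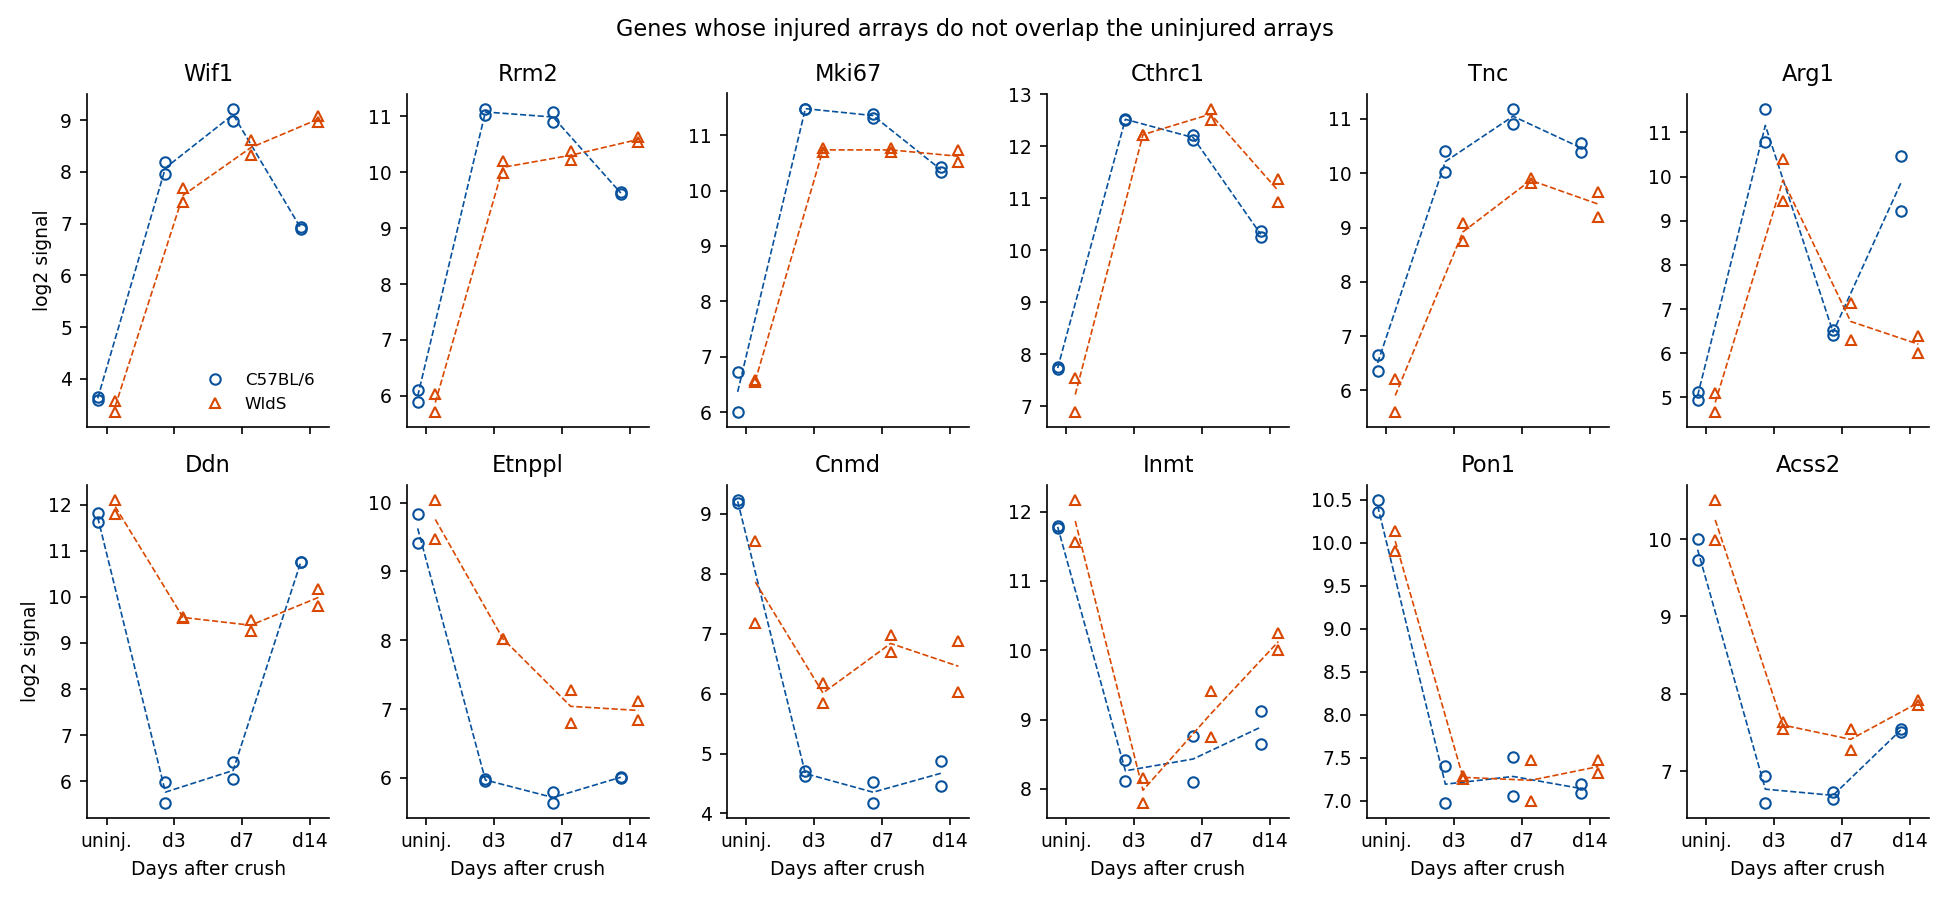
Log2 signal of 6 genes with large rises (top row) and 6 with large falls (bottom row) in each of the 16 arrays, by group, in C57BL/6 (circles) and WldS (triangles); dashed lines join the group means of a strain. The injured arrays of each of the 12 genes lie wholly above or wholly below its 4 uninjured arrays.

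An even response over strains and days was uncommon among large changes. Over the 6 injured groups the F test found 5661 genes (38.9%) whose level varied with strain or day, and 48% of the genes called in the shared comparison were among them. Of the called genes, 2998 were not found to vary (1424 higher and 1574 lower), but only 154 of those had moved by at least 1 (73 higher and 81 lower). A p that misses the threshold does not show equal levels. The genes described next were chosen after their values were seen, for a small range of group changes relative to their shared change.

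Dck, the kinase that salvages deoxycytidine, read 6.01, 7.20, 7.52 and 6.27 before injury and 9.30, 9.72 and 10.30 after it, and its 6 group changes spanned only 2.69 to 3.28 (F test adjusted p = 0.793). Its 2 other bright probe sets ranged from 0.19 to 2.87. Lrrfip1, a nucleic acid sensor, read 8.35, 9.18, 8.65 and 8.45 against 10.81, 11.35 and 11.74 and rose by 2.62 ± 0.12 (limma adjusted p = 1.42e-09). Ets1, a transcription factor, rose by 2.53 ± 0.24 and Arhgap11a, a GTPase regulator of dividing cells, by 2.83 ± 0.19. Mpeg1, which encodes a pore-forming protein of macrophages, rose by 3.13 ± 0.18 with group changes of 2.64 to 3.55. In all of these the injured arrays lay above the uninjured ones. The F test still called Lrrfip1 (adjusted p = 0.0485), Ets1 (0.0456), Arhgap11a (0.0275) and Mpeg1 (2.08e-05), so a small range was not an absence of variation. Bright probe sets other than the one used moved by 0.44 to 0.92 for Lrrfip1 and by -0.01 to 1.86 for Ets1.

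Genes were also grouped into 52 lists by cell type and function. Their counts are to be read beside the 39.7% of all genes called (21.5% higher and 18.1% lower). That share depended on signal, with 19.4% of all genes called at a mean signal from 5 to 6 and 49.8% from 11 to 15. Myelin came first, as the product of the resting Schwann cell. Few of its structural genes were called across days. Of 12 genes tested in the compact myelin list, 4 fell, none rose and 8 were not called (33.3% called against 39.7% of all genes). The list also holds genes of noncompact myelin and of cell junctions, such as Ncmap and Cldn19. Its median was -0.80, while the levels of all 12 varied among the injured groups. The median change was -2.22, -1.50 and -0.08 in C57BL/6 at day 3, 7 and 14 and -0.65, -0.38 and -0.13 in WldS, so the medians of both strains lay near 0 at day 14. The 4 that fell were Ncmap, a membrane protein of noncompact myelin (-2.56 ± 0.82), Drp2, a dystrophin relative under the myelin sheath (-1.91 ± 0.45), Cmtm5 (-1.61 ± 0.55) and the tight junction gene Cldn19 (-1.30 ± 0.41). Gjc3, a gap junction gene, differed by -0.03 ± 0.56, with group changes on both sides of 0, from -1.45 to 1.52.

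Among enzymes that make myelin lipids a larger share fell. Of 18 tested, 10 fell and none rose (55.6% called), with a median of -0.85, and the levels of 16 varied among the injured groups. Elovl6, a fatty acid elongase, fell by 2.09 ± 0.39, and Fa2h, which hydroxylates myelin sphingolipids, fell by 2.02 ± 0.70, the latter from 12.38, 12.21, 12.26 and 12.37 to 7.29 at the lowest, 11.25 at the median and 11.74 at the highest. Degs1, a desaturase of sphingolipid synthesis, read 12.02, 12.08, 12.05 and 12.00 against 11.75, 11.98 and 12.21 and differed by -0.04 ± 0.09.

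Cholesterol synthesis, which supplies myelin membrane, had the lowest median of the 52 lists. Of 20 genes tested, 17 fell, none rose and 3 were not called, and in each of the 17 all injured arrays lay below all uninjured ones. The list's median was -1.87, and its group medians were -1.95, -2.56 and -1.25 in C57BL/6 and -1.75, -1.71 and -1.75 in WldS at day 3, 7 and 14. Hsd17b7, an enzyme of the late pathway, read 11.06, 11.02, 11.45 and 11.09 before injury and 7.71, 8.58 and 9.16 after it, a difference of -2.67 ± 0.21 (limma adjusted p = 2.32e-07). Idi1, which makes the isoprenoid building block, fell by 2.53 ± 0.45, Insig1, a sterol sensor partner, fell by 2.42 ± 0.25, and Lss, which closes the sterol rings, fell by 2.25 ± 0.22. The 3 genes not called were Srebf2, the transcription factor of the pathway (-0.33 ± 0.13), Mvk (-0.18 ± 0.09) and Ebp (-0.03 ± 0.14).

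Genes of the immature and repair Schwann cell rose in the majority. Of 22 tested, 14 rose, 1 fell and 7 were not called, with a median of 1.37 and group medians of 1.29, 2.13 and 1.52 in C57BL/6 against 0.04, 0.86 and 1.30 in WldS, a strain difference that was not tested for the list. Egr3, an early response transcription factor, rose by 3.30 ± 0.49 (a second bright probe set moved by -0.05), and Shh, the gene of the secreted morphogen sonic hedgehog, by 3.15 ± 0.51. Shh read 8.68, 9.03, 8.69 and 8.76 before injury and 9.90, 11.97 and 13.30 after it. Cdh2 (N-cadherin) was the one that fell, by 0.64 ± 0.21. The neurotrophin gene Bdnf differed by -0.07 ± 0.08 and the adhesion gene Ncam1 by 0.11 ± 0.22.

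Schwann cell identity factors went both ways, with 2 higher and 5 lower of 16 (43.8% called against 39.7% of all genes) and a median of -0.04. With strain and day groups as a random block 1 was higher and 3 lower, and with the index as a covariate 2 and 2. S100b, a calcium-binding Schwann cell marker, fell by 1.27 ± 0.24, Plekhb1 was at -0.88 ± 0.28 and Sox10 at -0.58 ± 0.19, all with injured arrays below uninjured ones, though the other probe sets of Sox10 moved by -0.12 to -0.01. Tfap2a (0.49 ± 0.19) and Yy1 (0.32 ± 0.08) rose. With the mean of all probe sets of a gene, Sox10 was at -0.24 (limma adjusted p = 0.16), Tfap2a at 0.28 (0.0694) and Yy1 at 0.10 (0.192). Of 18 genes for nodes and noncompact myelin 38.9% were called, near the share of all genes. Among them 6 fell and 1, Epb41l3, rose (0.59 ± 0.11). The falls were led by the node adhesion genes Nfasc (-1.66 ± 0.29), Cadm3 (-1.42 ± 0.21) and Cntn1 (-1.14 ± 0.24).

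**Figure D3:**
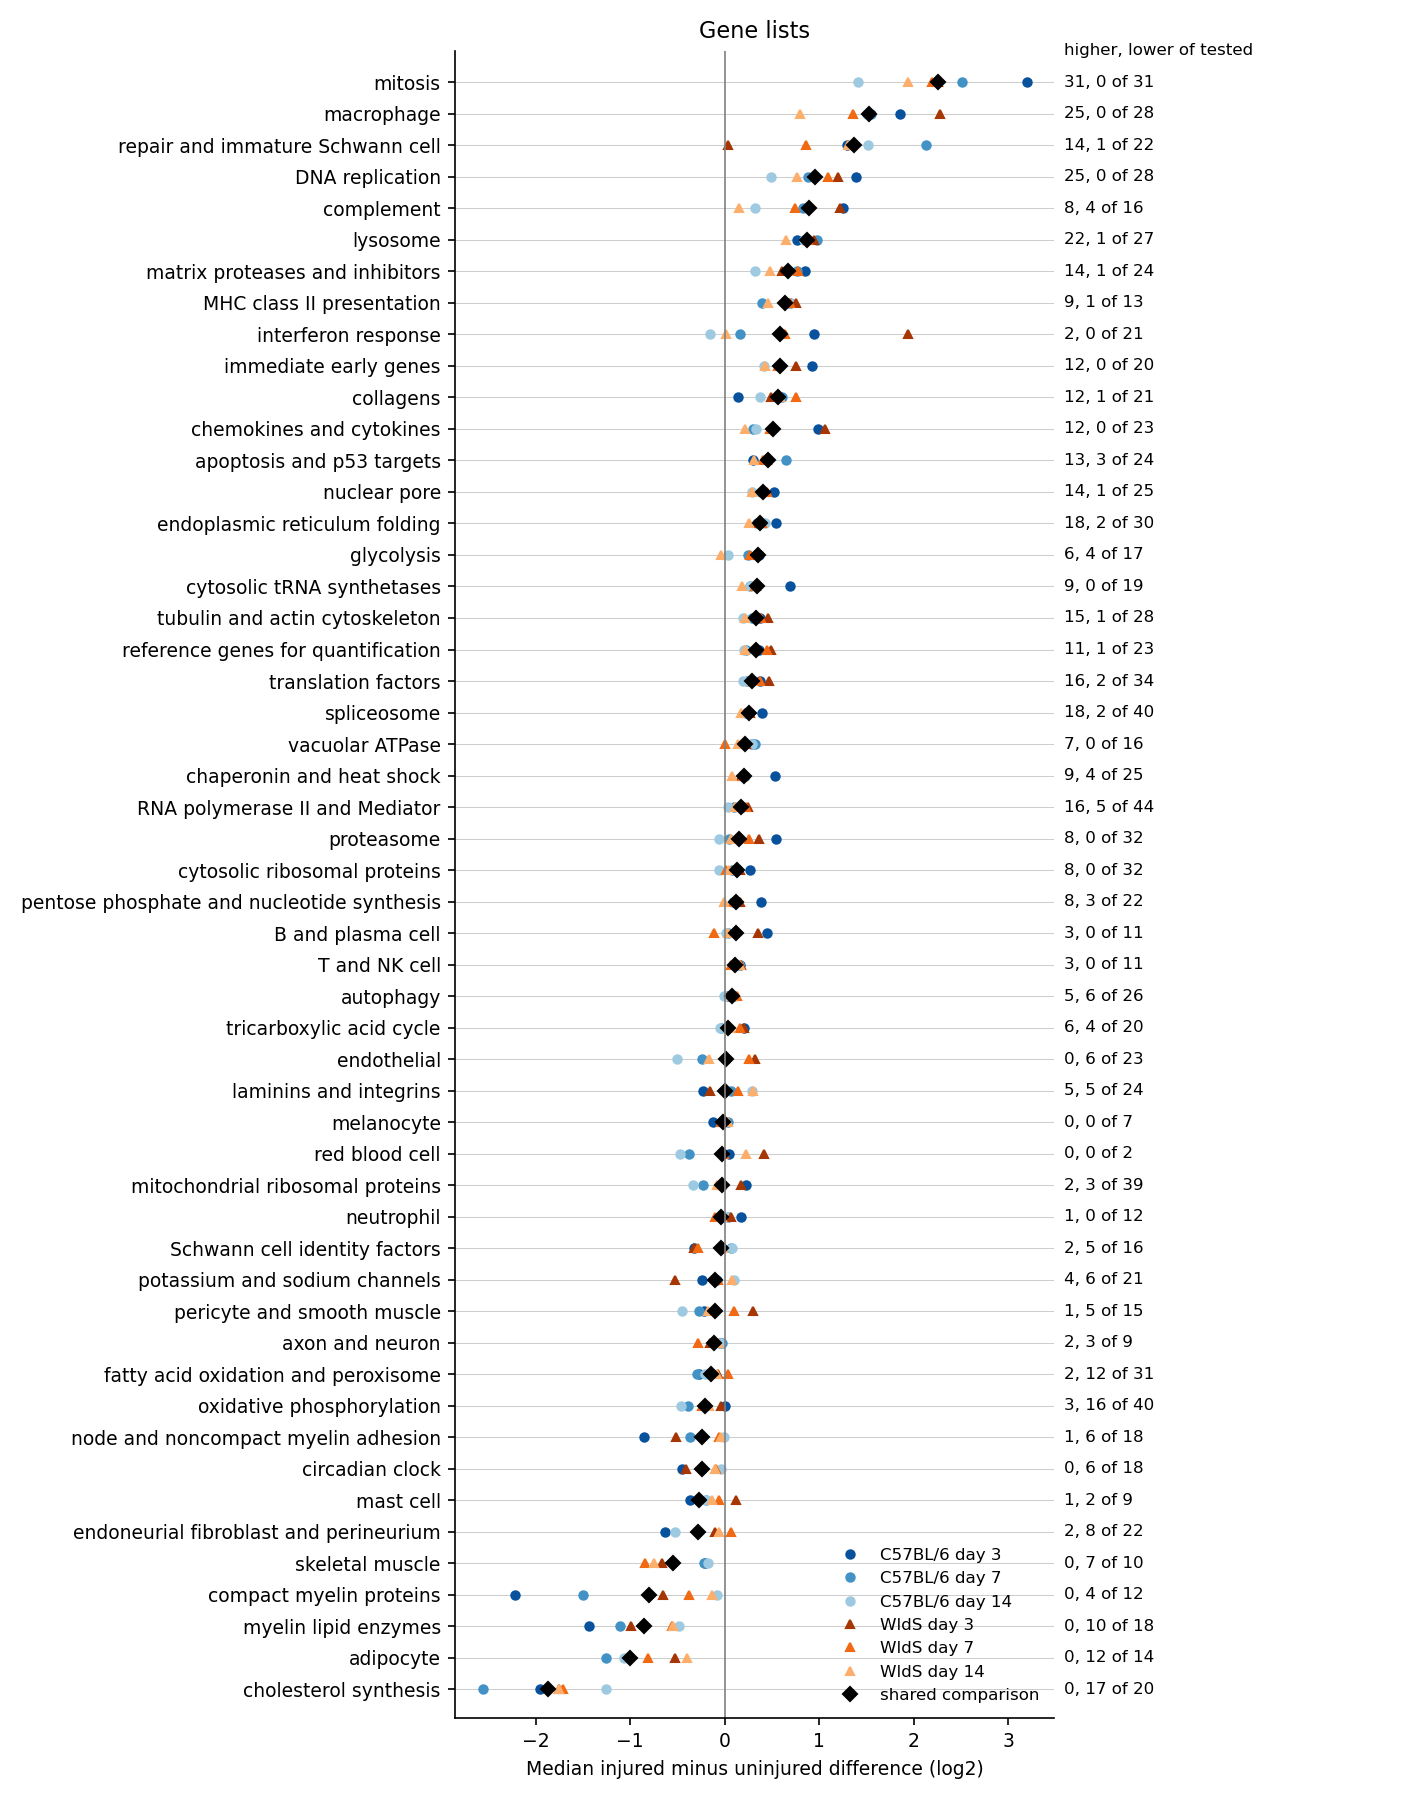
Median injured minus uninjured difference (log2) of each of the 52 gene lists: black diamonds for the shared comparison, coloured points for each of the 6 injured groups against its own strain's uninjured mean; the numbers at the right are genes called higher, called lower and tested. Mitosis has the highest shared median, 2.26, and cholesterol synthesis the lowest, -1.87.

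Macrophage genes rose in all but 3 cases. Of 28 tested, 25 rose, none fell and 3 were not called, with a median of 1.53, and the group medians lay between 0.80 (WldS day 14) and 2.28 (WldS day 3). Mpeg1 read 9.19, 9.61, 9.09 and 9.13 before injury and 11.75, 12.41 and 13.03 after it. Chil3, a chitinase-like secreted protein, rose by 3.01 ± 1.13 from a level below the dim filter (limma adjusted p = 0.0452), with group changes from 0.52 to 6.08, and Gpnmb, a glycoprotein of lipid-laden macrophages, by 2.62 ± 0.60. Csf1r, the receptor for the macrophage growth factor, rose by only 0.35 ± 0.13. Not called were Cd14 (0.57 ± 0.47), the mannose receptor gene Mrc1 (0.85 ± 0.38) and Cd163 (-1.08 ± 0.42), a haemoglobin scavenger receptor chosen after its values were seen, whose group changes ran from 0.04 to -2.67. With the 3'/5' index as a covariate, 17 macrophage genes were higher and 1 lower, and without both arrays of high index 23 and none.

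Antigen presentation and complement held members that fell. Of 13 MHC class II genes 76.9% were called, and 9 rose and 1, H2-DMa, fell (-1.15 ± 0.26). Itgax, an integrin of dendritic cells and some macrophages, rose by 2.20 ± 0.48, Cd74 by 1.04 ± 0.20, H2-Ab1 by 0.94 ± 0.14 and H2-Eb1 by 0.93 ± 0.17. Of 16 complement genes, 8 rose and 4 fell (75% called). Receptors and the first component were up, with C3ar1 at 2.64 ± 0.31, Itgb2 at 2.34 ± 0.29 and C1qa at 1.47 ± 0.23. The component C2 fell by 1.08 ± 0.14, as did the inhibitors Cd55 (-0.98 ± 0.18) and Cd59a (-0.57 ± 0.16). With the index as a covariate the complement counts were 5 higher and 6 lower, and without both arrays of high index 8 and 6.

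Of the lists for other immune cells 8.33% (neutrophil), 27.3% (T and NK cell), 27.3% (B and plasma cell) and 33.3% (mast cell) of genes were called, against 39.7% of all genes. These lists were dim, with mean levels from 5.70 (neutrophil) to 7.95 (B and plasma cell), and dim genes were called less often. The share called was 19.4% of all genes with a mean signal from 5 to 6, 28.1% from 6 to 7 and 41.1% from 7 to 8. Of 12 neutrophil genes 1 rose, the receptor gene Csf3r (1.02 ± 0.22), and the granule genes Elane, Ltf and Mpo differed by 0.01 ± 0.08, -0.02 ± 0.07 and -0.06 ± 0.07. Of 11 T and NK cell genes 3 rose, namely Il7r (2.24 ± 0.44), Gzma (0.99 ± 0.26) and Nkg7 (0.61 ± 0.20), while the T cell genes Cd3e and Cd8a differed by 0.02 ± 0.06 and -0.01 ± 0.07. Among 11 B and plasma cell genes 3 rose, Cd22 by 1.22 ± 0.38, Sdc1 by 0.75 ± 0.17 and Prdm1 by 0.71 ± 0.11, while the B cell genes Cd79a and Pax5 differed by -0.01 ± 0.08 and -0.06 ± 0.06. Mast cell genes gave 1 higher (Kit) and 2 lower (Mcpt4 and Ms4a2) of 9. Without both arrays of high index, and also with the index as a covariate, none was higher and 5 were lower, and with strain and day groups as a random block none was higher and 2 were lower.

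Interferon response genes changed with the day and were rarely called in the shared comparison. Of 21 genes 2 were called, Cxcl10, a chemokine (1.34 ± 0.25), and Ddx58, a viral RNA sensor (0.75 ± 0.24, but 0.22 with the mean of all its probe sets, limma adjusted p = 0.325), which is 9.52% against 39.7% of all genes, yet the levels of all 21 varied among the injured groups. The group medians were 0.95, 0.16 and -0.15 in C57BL/6 and 1.94, 0.64 and 0.01 in WldS. Ifit1, an antiviral gene, read 8.11, 9.05, 8.77 and 7.95 before injury and 6.67, 7.95 and 10.34 after it, with group changes from -1.84 to 1.97 and a shared difference of -0.29 ± 0.61. Chemokines and cytokines had 12 of 23 higher and none lower (52.2% called). The rises were led by the monocyte attractants Ccl8 (2.62 ± 0.38) and Ccl2 (1.84 ± 0.45), by Cxcl14 (1.83 ± 0.19) and by Tgfb1 (1.60 ± 0.18). Tnf differed by 0.06 ± 0.07.

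Lysosomal enzymes, which break down engulfed debris, rose. Of 27 lysosome genes, 22 rose and 1 fell, with a median of 0.87 and group medians between 0.65 and 0.98, although 19 of the 27 varied in level among the injured groups. Ctss (cathepsin S) read 11.12, 11.59, 11.14 and 11.20 before injury and 12.95, 13.61 and 13.99 after it, a rise of 2.27 ± 0.14 (limma adjusted p = 2.93e-08). Gla, a galactosidase, rose by 2.26 ± 0.25 from below the dim filter, Gusb, the beta-glucuronidase gene, by 2.23 ± 0.16 and Ctsh by 1.77 ± 0.16. The sphingomyelinase gene Smpd1 fell by 0.43 ± 0.11. Of 16 genes of the vacuolar ATPase, the pump that acidifies lysosomes, 7 rose and none fell (43.8% called against 39.7% of all genes). Atp6v0d2 was at 2.27 ± 0.40 and Atp6v1b2 at 1.49 ± 0.12, whereas Atp6v0a2 and Atp6v1d differed by -0.02 ± 0.07 and 0.07 ± 0.07. Autophagy genes were split, with 5 higher and 6 lower of 26 (3 lower with the index as a covariate) and none beyond 0.54 in size. Their share called, 42.3%, was near that of all genes. The LC3 family genes Gabarapl1 (-0.54 ± 0.12), Map1lc3a (-0.44 ± 0.11) and Map1lc3b (-0.39 ± 0.11) fell, while Atg5, Atg4a and Becn1 each rose by 0.48. With the index as a covariate Map1lc3a was at -0.21 (limma adjusted p = 0.0589) and Map1lc3b at -0.22 (0.149). With the mean of all probe sets of a gene, Atg4a was at 0.13 (0.102) and Atg5 at 0.20 (0.0604).

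Cell division had the highest median of the 52 lists. All 31 mitosis genes tested rose, 30 of them with no overlap of arrays, with a median of 2.26 and group medians of 3.20, 2.51 and 1.41 in C57BL/6 and 2.26, 2.19 and 1.94 in WldS. The smallest rise was that of the kinetochore motor gene Cenpe (1.09 ± 0.25), and Kif2c, a motor that takes microtubules apart, was up by 3.33 ± 0.30 from below the dim filter. The levels of all 31 still varied among the injured groups. Of 28 DNA replication genes, 25 rose and none fell, with a median of 0.96. Uhrf1, which carries DNA methylation through replication, rose by 3.11 ± 0.18 from below the dim filter, Tk1, a thymidine kinase, by 2.27 ± 0.33 and Mcm6, a subunit of the replicative helicase, by 2.17 ± 0.32. Fen1 (0.15 ± 0.07), Orc1 (0.01 ± 0.07) and Pold1 (0.00 ± 0.18) were not called.

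Promoters of these coherent lists are shown because their members moved together. They are RefSeq sequences of GRCm38.p6, 250 bases before to 50 after the start, printed 5' to 3' along the gene, with matches on either strand in capitals. For mitosis the letters CCAAT (also as ATTGG) and TTTGAA (also as TTCAAA) were searched. Mki67 lies on the minus strand of chr7:135716330-135716629 and Top2a on the minus strand of chr11:99024140-99024439.
Mki67: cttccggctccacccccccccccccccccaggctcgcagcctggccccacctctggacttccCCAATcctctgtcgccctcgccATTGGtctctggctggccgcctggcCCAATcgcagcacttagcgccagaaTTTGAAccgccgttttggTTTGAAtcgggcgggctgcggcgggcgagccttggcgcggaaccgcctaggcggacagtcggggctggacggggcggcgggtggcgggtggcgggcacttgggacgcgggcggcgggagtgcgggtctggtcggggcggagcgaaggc
Top2a: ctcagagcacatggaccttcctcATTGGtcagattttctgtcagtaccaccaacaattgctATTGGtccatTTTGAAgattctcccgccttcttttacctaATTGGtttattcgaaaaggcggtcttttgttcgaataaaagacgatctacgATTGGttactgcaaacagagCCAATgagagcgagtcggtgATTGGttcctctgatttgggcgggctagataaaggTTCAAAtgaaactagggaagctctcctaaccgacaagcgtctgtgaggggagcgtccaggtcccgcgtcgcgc
Of 29 mitosis promoters (27 of 31 genes matched), 15 or 51.7% held CCAAT at least 2 times, against 11.7% of all 32851 promoters, and 22 or 75.9% held TTTGAA against 17.9%. The Mki67 promoter held 3 CCAAT and 2 TTTGAA and that of Top2a 6 and 2, with no overlap between the motifs. A match describes the letters in this window and is not a binding site.

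For DNA replication the letters TTTGGCGC and TTTCCCGC were searched on both strands, and for lysosome genes TCACGTGA, which reads the same on both. Mcm6 lies on the minus strand of chr1:128359656-128359955 and Gla on the minus strand of chrX:134600956-134601255, and capitals mark TTTGGCGC (or GCGCCAAA) in the first and TCACGTGA in the other.
Mcm6: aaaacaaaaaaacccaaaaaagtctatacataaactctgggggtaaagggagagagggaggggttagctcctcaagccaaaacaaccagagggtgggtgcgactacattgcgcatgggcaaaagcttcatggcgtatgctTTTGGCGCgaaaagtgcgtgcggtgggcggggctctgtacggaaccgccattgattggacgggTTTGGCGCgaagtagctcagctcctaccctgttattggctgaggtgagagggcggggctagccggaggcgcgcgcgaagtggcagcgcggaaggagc
Gla: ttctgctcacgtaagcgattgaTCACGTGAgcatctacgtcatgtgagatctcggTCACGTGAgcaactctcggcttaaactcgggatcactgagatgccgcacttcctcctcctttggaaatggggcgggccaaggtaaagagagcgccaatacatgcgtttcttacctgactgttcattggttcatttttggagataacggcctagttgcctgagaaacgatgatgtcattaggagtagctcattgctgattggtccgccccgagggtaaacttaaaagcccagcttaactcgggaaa
Of 28 promoters of DNA replication genes, 17.9% held TTTGGCGC against 0.514% of all, and 14.3% held TTTCCCGC against 1.07%. Of 25 lysosome promoters, 16% held TCACGTGA against 0.974%. For cholesterol synthesis the letters TCACNCCAC were in 1 of 19 promoters (5.26%, against 1.24% of all), that of Hmgcs1, and for interferon response genes the interferon-stimulated response element was in 50% of 20 promoters against 3.44%, although only 2 genes of that list were called.

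Extracellular matrix genes rose in part. Of 21 collagen genes 12 rose and 1 fell (61.9% called). Col5a2, a chain of fibrillar collagen V, read 11.81, 11.92, 11.75 and 11.91 before injury and 13.12, 13.29 and 13.64 after it, a rise of 1.49 ± 0.10 (limma adjusted p = 8.71e-08), and Col18a1 (1.43 ± 0.18), Col14a1 (1.18 ± 0.24) and Col6a3 (1.12 ± 0.22) followed. The basement membrane collagens Col4a1 (0.02 ± 0.13) and Col4a2 (0.11 ± 0.17) were not called, and Col8a2 fell by 1.47 ± 0.23. Of 24 matrix proteases and inhibitors 14 rose and 1 fell (62.5% called). The inhibitor gene Timp1 rose by 3.34 ± 0.52 and Mmp12, a macrophage elastase, by 3.11 ± 0.50 from below the dim filter, while Timp3 fell by 0.47 ± 0.10 (-0.17 with the mean of its probe sets, limma adjusted p = 0.251). Laminins and integrins were balanced, with 5 higher (among them Itgb3, 1.56 ± 0.16, and Itgb1, 1.55 ± 0.22) and 5 lower of 24 (among them Itgb4, -1.30 ± 0.27, and Lamb2, -0.68 ± 0.12). Of these 24 genes 41.7% were called, against 39.7% of all genes.

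Of 23 endothelial genes 6 fell and none rose (26.1% called against 39.7% of all genes), with a median of 0.01. Mfsd2a, a lipid transporter of barrier endothelium, read 9.88, 9.87, 10.12 and 10.02 before injury and 5.93, 7.84 and 8.45 after it, a difference of -2.60 ± 0.36. Abcb1a, an efflux pump, fell by 1.31 ± 0.14 and Slc2a1, the glucose transporter of barrier endothelium and perineurium, fell by 1.02 ± 0.08. The general endothelial genes Cdh5 and Flt1 differed by 0.10 ± 0.27 and 0.01 ± 0.12. Of 15 pericyte and smooth muscle genes 5 fell and 1 rose (40% called, near the 39.7% of all genes), with the pericyte receptor gene Pdgfrb at -0.73 ± 0.12, Tagln at -1.13 ± 0.43 and Mcam at 1.36 ± 0.28. With strain and day groups as a random block 1 fell. Of 22 fibroblast and perineurial genes 45.5% were called, and 8 fell and 2 rose, Wif1 and Cd34 (0.65 ± 0.20). Lypd2 led the falls at -2.39 ± 0.20.

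Markers of fat and muscle, tissues that adjoin the nerve, were lower in injured pools. Of 14 adipocyte genes 12 fell and none rose, with a median of -1.00, and only 3 varied among the injured groups. Retn (resistin) read 10.25, 10.59, 10.45 and 10.53 before injury and 7.93, 8.75 and 9.19 after it, a difference of -1.74 ± 0.17, and Cidec (-1.69 ± 0.25), Plin4 (-1.67 ± 0.24) and Pck1 (-1.61 ± 0.20) fell with it. The mean level of the list ran from 8.51 to 9.09 in uninjured and from 7.65 to 8.33 in injured arrays. Of 10 skeletal muscle genes bright enough to test 7 fell and none rose, led by Casq1 (-2.00 ± 0.17) and Tnnt3 (-1.55 ± 0.15), and the list's mean level ran from 5.89 to 7.19 in uninjured and from 5.53 to 5.77 in injured arrays. The group medians were -0.21, -0.22 and -0.18 in C57BL/6 and -0.66, -0.84 and -0.75 in WldS, and with strain and day groups as a random block 4 fell. Ttn read 5.34, 5.59, 6.52 and 8.20 in the uninjured arrays, and its group changes were -0.29, 0.01 and 0.08 in C57BL/6 and -2.15, -2.02 and -1.93 in WldS. Connective tissue was stripped from all nerves, and the part of adhering tissue in these falls was not tested.

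Few axonal transcripts were bright. Of 9 axon and neuron genes tested 3 fell and 2 rose (55.6% called). Nefl, the light neurofilament, read 7.68, 8.03, 8.31 and 7.62 before injury and 4.67, 5.11 and 6.01 after it, so that no array overlapped. It fell by 2.72 ± 0.18 (limma adjusted p = 4.81e-08) to below the dim filter, so this size may be understated. Uchl1 fell by 0.65 ± 0.22 and Stmn2 fell by 0.52 ± 0.12, while Thy1 (1.61 ± 0.27) and Tubb3 (1.02 ± 0.29), which other cells of the nerve can express, rose. Among 7 melanocyte and 2 red blood cell genes none was called.

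Among regulators, 12 of 20 immediate early genes rose and none fell (60% called). Fos, which pairs with Jun in the AP-1 factor, read 9.02, 8.72, 9.17 and 9.25 before injury and 10.89, 11.41 and 11.79 after it, a rise of 2.33 ± 0.14 (limma adjusted p = 2.03e-08), and Jun, which drives the repair state of Schwann cells, rose by 1.10 ± 0.10 with group changes of 0.87 to 1.37. Jund (-0.14 ± 0.07), Dusp1 (-0.02 ± 0.31) and Klf2 (0.09 ± 0.44) were not called. Of 24 apoptosis and p53 genes 13 rose and 3 fell (66.7% called). The stress gene Gadd45a was at 2.46 ± 0.38, the death activator gene Bcl2l11 at 1.36 ± 0.22 and the cell cycle inhibitor gene Cdkn1a at -0.88 ± 0.20. Of 28 cytoskeletal genes 57.1% were called, and 15 rose and 1, Tubb4a, fell (-0.36 ± 0.09). The list was bright, with mean levels from 10.86 to 11.68. Of all genes with a mean signal from 10 to 11 and from 11 to 15, 46.8% and 49.8% were called. With the index as a covariate 10 cytoskeletal genes rose and none fell, and with strain and day groups as a random block 12 rose and none fell. Pfn1, which feeds actin to growing filaments, rose by 1.24 ± 0.21.

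Of 18 circadian clock genes 6 fell and none rose (33.3% called against 39.7% of all genes), led by Dbp (-1.42 ± 0.43) and Hlf (-1.41 ± 0.21), both PAR-domain transcription factors. Dbp read 11.75, 10.40, 11.20 and 11.97 in the uninjured arrays, and Nr1d1 read 9.26, 7.65, 7.57 and 8.61, so the uninjured pools already differed among themselves. With strain and day groups as a random block 1 gene was lower, and with the index as a covariate 3. The hour of dissection is not given in the sources used here. Of 21 potassium and sodium channel genes 4 rose and 6 fell (47.6% called), with the leak channel Kcnk1 at -2.54 ± 0.65, Kcnk5 at -0.82 ± 0.13 and Kcnj10, an inward rectifier of glia, at 2.17 ± 0.77.

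Of 5 lists for RNA production, export and translation, between 47.4% and 60% of genes were called, against 39.7% of all genes. The mean levels of these lists ran from 8.45 to 11.30. In the classes of mean signal from 8 upward, between 46.8% and 49.8% of all genes were called. Of 25 nuclear pore genes 14 rose and 1 fell (median 0.41), of 34 translation factors 16 rose and 2 fell (median 0.29), of 40 spliceosome genes 18 rose and 2 fell (median 0.26), and of 19 cytosolic tRNA synthetases 9 rose and none fell (median 0.34). With strain and day groups as a random block 11 nuclear pore genes rose and 1 fell, and 13 translation factors, 12 spliceosome genes and 7 tRNA synthetases rose and none fell. Srsf1, a splicing factor, read 10.52, 10.72, 10.47 and 10.39 before injury and 11.03, 11.49 and 11.89 after it, a rise of 0.95 ± 0.10 (limma adjusted p = 3.1e-06). Eif4a1, the helicase of translation initiation, rose by 1.09 ± 0.11, and the pore genes Nup37 and Nup93 by 1.06 ± 0.20 and 0.71 ± 0.10. Of 44 RNA polymerase II and Mediator genes 16 rose and 5 fell, with Med14 at 1.12 ± 0.13 and Polr2i at -0.58 ± 0.21, but with strain and day groups as a random block 8 rose and 2 fell, with the index as a covariate 8 and 3, and without both arrays of high index 10 and 3.

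In the endoplasmic reticulum 18 of 30 protein folding genes rose and 2 fell (66.7% called). The counts were 12 and 2 with strain and day groups as a random block, and 16 and 4 without both arrays of high index. The disulfide isomerases Pdia6 (1.24 ± 0.16) and Pdia3 (1.15 ± 0.17) and the collagen chaperone Serpinh1 (0.96 ± 0.15) rose. The stress factor Ddit3 fell (-0.56 ± 0.12, but -0.13 with the mean of its probe sets, limma adjusted p = 0.323). In the cytosol and mitochondria 9 of 25 chaperone genes rose and 4 fell (52% called, and 7 and 3 with the random block). The chaperonin gene Cct8 rose by 1.05 ± 0.15, whereas Hspb1 (-1.25 ± 0.27), Hspa1a (-1.06 ± 0.18) and Cryab (-0.92 ± 0.22), all heat-inducible or small heat shock proteins, fell. Of 32 proteasome genes 8 rose and none fell (25% called against 39.7% of all genes, median 0.15), with Psmd2 at 0.58 ± 0.08 and Psmc5 at 0.02 ± 0.11.

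Lists of energy metabolism differed in direction. Of 40 oxidative phosphorylation genes 16 fell and 3 rose, with a median of -0.21, and 10 were lower with strain and day groups as a random block. The list was bright, with mean levels from 10.85 to 11.46. Its share called, 47.5%, lay between those of all genes with a mean signal from 10 to 11 (46.8%) and from 11 to 15 (49.8%). The other metabolism lists had mean levels from 9.10 to 10.52, and 48.6% of all genes with a mean signal from 9 to 10 were called. Ndufs7, a complex I subunit, read 11.18, 11.33, 11.80 and 11.22 before injury and 9.77, 10.27 and 11.06 after it, a difference of -1.15 ± 0.21, and Ndufa5 (-1.13 ± 0.19) and Ndufb10 (-1.05 ± 0.19) fell alike, while Sdhd rose by 0.63 ± 0.15. Of 31 genes for fatty acid oxidation and peroxisomes 12 fell and 2 rose (45.2% called). Of 17 glycolysis genes 6 rose and 4 fell (58.8% called), and isozymes parted. Hexokinase Hk2 (0.95 ± 0.10), Pfkp (0.80 ± 0.16) and Ldha (0.74 ± 0.23) rose, and Aldoc, Ldhb (-1.16 ± 0.25) and Pfkm (-0.50 ± 0.13) fell. Aldoc, an aldolase of brain and glia, read 6.80, 6.97, 7.40 and 7.24 before injury and 5.34, 5.48 and 5.60 after it, close to the dim filter of 5.37, and it fell by 1.64 ± 0.08 (limma adjusted p = 1.63e-09). In the tricarboxylic acid cycle 6 rose and 4 fell of 20 (50% called), with Pcx, which feeds the cycle with oxaloacetate, at -1.11 ± 0.11. In nucleotide synthesis and the pentose phosphate path 8 rose and 3 fell of 22 (50% called), with Gmps at 1.11 ± 0.18 (0.06 with the mean of its probe sets, limma adjusted p = 0.652) and Tkt at -0.63 ± 0.10.

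Ribosomal protein genes were nearly level. Of 32 for the cytosolic ribosome 8 rose, none fell and 24 were not called, 25% against 39.7% of all genes, with a median of 0.13 and no difference above 0.42 in size. These 8 calls depended on scaling and on the error model, with 3 left after median centring, 1 after quantile normalization and none with strain and day groups as a random block. The largest of them, Rplp0 (0.42 ± 0.16), read 13.08, 13.01, 11.98 and 12.92 before injury, the low value being that of the uninjured array with the highest 3'/5' index. Of 39 mitochondrial ribosomal genes 2 rose and 3 fell (12.8% called), with Mrps6 at -1.06 ± 0.13 and Mrps2 at 0.59 ± 0.08.

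Reference genes, which are used to scale PCR measurements on the premise that they hold still, were examined one by one. Of 23 tested 11 rose, 1 fell and 11 were not called, 52.2% against 39.7% of all genes, with a median of 0.33, and 2 hardly moved. The list was bright, with mean levels from 11.09 to 12.00, and of all genes with a mean signal from 11 to 15 a similar share, 49.8%, was called. Without both arrays of high index 9 reference genes rose and 1 fell, with the index as a covariate 7 and 1, and with strain and day groups as a random block 7 and 1. Gusb moved most. It read 8.05, 8.26, 7.54 and 7.92 before injury and 9.25, 10.10 and 10.83 after it, a rise of 2.23 ± 0.16 or 4.68-fold (limma adjusted p = 1.19e-07). As a lysosomal enzyme it also belongs to the clearance list.

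Ywhaz rose by 0.95 ± 0.15, Hprt by 0.83 ± 0.19, Eef2 by 0.82 ± 0.15, Ldha by 0.74 ± 0.23 and Pgam1 by 0.62 ± 0.14. Smaller rises were those of B2m (0.45 ± 0.14), Rplp0 (0.42 ± 0.16), Pgk1 (0.36 ± 0.08), Rpl4 (0.30 ± 0.11) and Eef1a1 (0.27 ± 0.06). Hprt read 10.63, 10.90, 10.26 and 10.52 before injury and 10.64, 11.48 and 11.92 after it, so the groups overlapped. Sdha, a subunit of succinate dehydrogenase, fell by 0.45 ± 0.05 (limma adjusted p = 1.14e-05), and its 12 injured arrays, from 11.20 to 11.38, all lay below its uninjured ones, 11.86, 11.73, 11.62 and 11.76.

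The others not called had differences of 0.47 ± 0.31 (Tfrc), 0.44 ± 0.20 (Atp5b), 0.33 ± 0.17 (Ipo8), 0.21 ± 0.12 (Ppib), 0.21 ± 0.10 (Actb), 0.20 ± 0.17 (Tubb5), 0.19 ± 0.12 (Tbp), 0.17 ± 0.12 (Polr2a), -0.16 ± 0.16 (Rps18), -0.03 ± 0.07 (Rpl13a) and 0.00 ± 0.09 (Cyc1). Rpl13a and Cyc1 were the 2 whose 95% confidence interval lay within 0.25 of no change. Rpl13a read 13.37, 13.50, 13.56 and 13.38 before injury and 13.23, 13.44 and 13.57 after it, and its 6 group changes lay between -0.09 and 0.06, but its 3 other bright probe sets moved by 0.09 to 0.71.

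**Figure D4:**
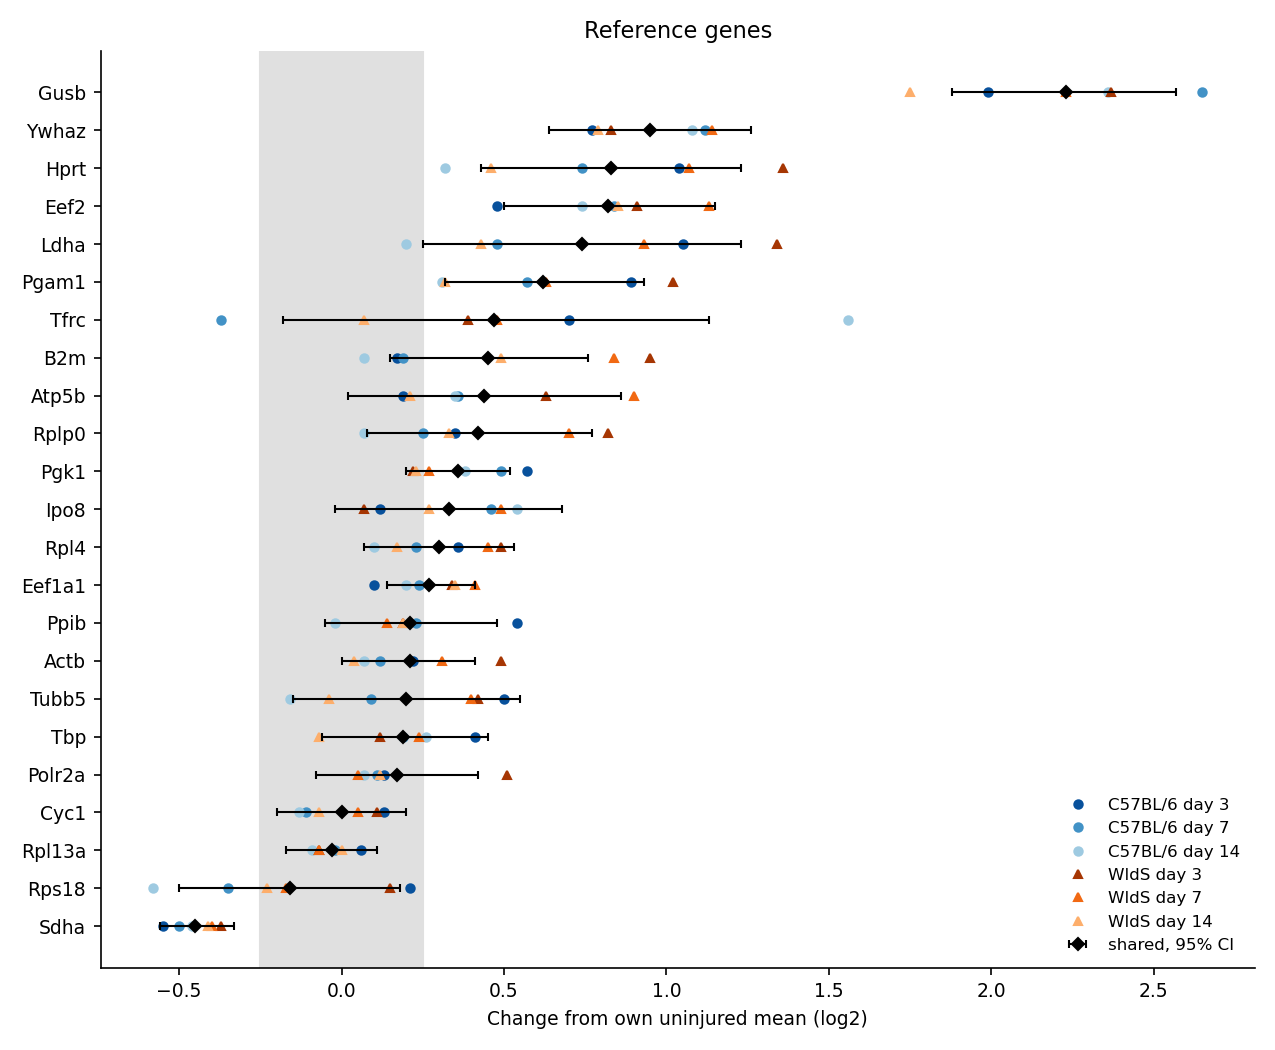
Change from the own strain's uninjured mean (log2) of the 23 reference genes in each of the 6 injured groups (points), with the shared difference and its 95% confidence interval (black); the grey band marks 0.25 on either side of no change. Gusb lies far above the band at 2.23, and the intervals of Rpl13a and Cyc1 lie inside it.

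Genes that hardly moved were defined by their interval and not by a missed threshold. In 2492 genes (17.1%) the 95% confidence interval of the difference lay within 0.25 on either side of 0, and in 2086 (14.3%) each of the 6 injured groups also stayed within 0.25 of its own strain's uninjured mean. This set was weighted to dim genes, where an array resolves little. It held 42.2% of the genes with a mean signal from 5 to 6 and 4.51% of those from 10 to 11. It also hung on the error model, since with strain and day groups as a random block 1034 genes met the interval and with bounds of 0.15 and 0.5 the counts were 226 and 7463.

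Among flat genes of a mean signal of at least 8, Snx17, a sorting nexin of endosomal recycling, was bright and level. Its uninjured arrays read 12.37, 12.37, 12.34 and 12.39 and its injured arrays 12.28, 12.37 and 12.50, a difference of 0.02 ± 0.05. Ywhab, a 14-3-3 adaptor of the same family as the rising Ywhaz, read 13.05, 12.96, 13.13 and 13.04 against 12.92, 13.01 and 13.06, a difference of -0.03 ± 0.05. In both genes the injured and uninjured ranges overlapped, and their 6 group changes stayed within 0.08 of 0.

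Others of this kind served housekeeping tasks. Bap1, a deubiquitinase (0.01 ± 0.06), Atxn7l3, a subunit of a chromatin deubiquitinase module (-0.02 ± 0.06), Fpgs, which retains folates in the cell (0.02 ± 0.05), Dync1i2, a dynein chain (0.00 ± 0.06), Stx5a, a Golgi SNARE (-0.03 ± 0.06), and Rfk, which makes FMN (-0.04 ± 0.07), had greatest group changes of at most 0.09. Cysrt1 (0.01 ± 0.06), Zfp830 (0.04 ± 0.07) and Ogfod2 (-0.03 ± 0.06) completed the 12 with Rpl13a. A second bright probe set of Zfp830 moved by 0.39.

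A small shared difference did not always mean a quiet gene. Among 7747 genes with a shared difference within 0.25, 1819 (23.5%) had levels that varied among the injured groups, 574 had group changes that spanned more than 1, and 58 more than 2. Ifit1bl1, of the interferon-induced Ifit family, read 7.39, 7.51, 7.35 and 7.35 before injury and 5.76, 6.77 and 10.43 after it, with changes of 2.48 in WldS at day 3 and -1.55 in C57BL/6 at day 7. Emid1, an extracellular matrix gene, read 9.16, 9.18, 9.10 and 9.02 against 7.61, 8.76 and 11.45. It went from -1.50 to -0.73 to 2.27 in C57BL/6 and from -0.95 to -0.02 to 0.94 in WldS over day 3, 7 and 14, for a shared difference of 0.00 ± 0.65.

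Several membrane genes went from below to above the uninjured level. Lrrtm4, a synaptic adhesion gene, moved by -1.99, 0.64 and 1.91 in C57BL/6 and -1.03, 0.29 and 1.23 in WldS, Negr1, a neural cell adhesion gene, by -1.62, 0.26 and 1.46 and by -0.65, 0.17 and 1.51, and Kcna1, an axonal and Schwann cell potassium channel, by -2.06, 0.35 and 0.66 and by -1.04, 0.20 and 0.97. All 3 were below the uninjured level at day 3 and above it at day 14 in both strains. The reverse course was that of Cbr2, a carbonyl reductase of macrophages (0.65, -0.67 and -1.81 in C57BL/6, 1.76, 0.38 and -0.62 in WldS), and of Elobl (1.25, -0.92 and -1.48, then 1.96, -0.35 and -0.95). Cgref1 rose by 2.97 in C57BL/6 at day 3 and stood at -0.29 to -0.71 in the other groups, and Gjb1, the gap junction gene of noncompact myelin, stood at 2.06 in C57BL/6 at day 3 and -1.00 at day 7. Ighm, the IgM heavy chain gene, read 8.61, 8.84, 11.45 and 11.50 before injury, and its changes ran from 1.51 in C57BL/6 at day 3 to -1.71 in WldS at day 14.

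**Figure D5:**
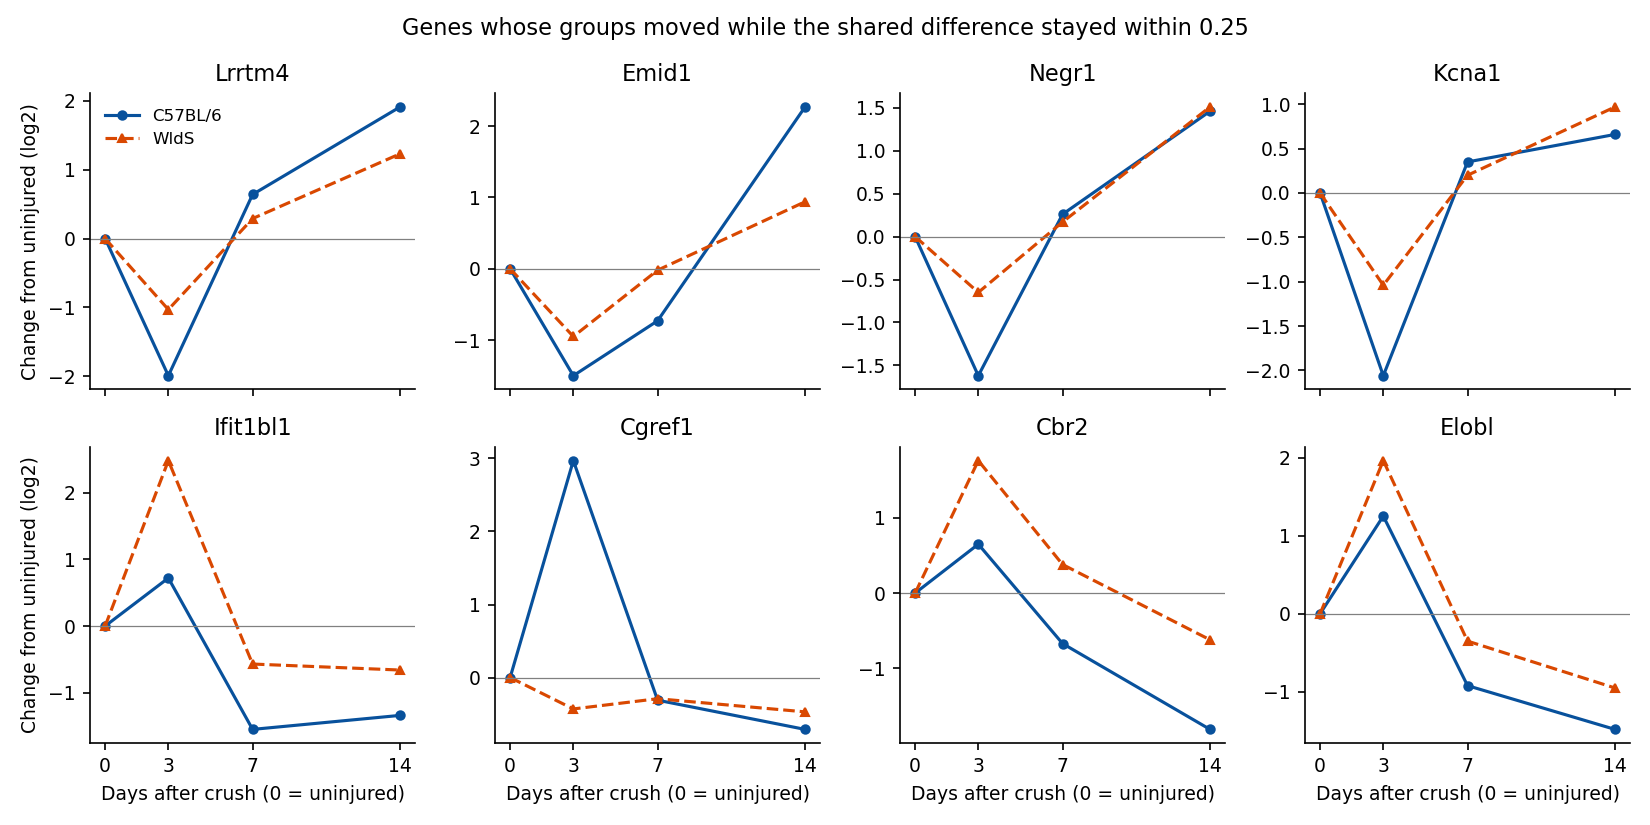
Change from the own strain's uninjured mean (log2) over day 0, 3, 7 and 14 of 8 genes whose shared difference was within 0.25, in C57BL/6 (solid) and WldS (dashed); points are group means of 2 arrays. Lrrtm4, Emid1, Negr1 and Kcna1 run from below to above the uninjured level, and Cbr2 and Elobl the other way.

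Whether the strains shared the response was tested directly. The interaction of strain and injury, the WldS response minus the C57BL/6 response over all 3 days, passed in 20 of 14545 genes (0.138%), 18 positive and 2 negative, with 1175 at an unadjusted p below 0.05. Day differences count as error in this test. On simulated arrays that varied independently within groups, unlike those measured here, it found 50% of interactions of 1 and 86% of those of 2. In 17 of the 20 the shared comparison was called as well, and in 3 the strains moved in opposite directions. With the 8 group means as the model, where only the spread between the 2 pools of a group is error, 483 were positive and 162 negative.

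In 16 of the 18 positive genes the mean response was negative in both strains and more so in C57BL/6, a count made after the values were seen. The changes of Cnmd ran from -4.54 to -4.85 in C57BL/6 and from -1.02 to -1.86 in WldS. In C57BL/6 its injured levels lay below the dim filter at all 3 days, and those of Fgf4 at day 3 and 7. The size of these changes and of the strain differences may thus be understated. Gpm6a, a membrane glycoprotein of neurites, changed by -3.22 to -3.69 against -1.10 to -1.47, and Rspo1, a secreted Wnt enhancer, by -2.71 to -3.50 against -0.86 to -1.56. Fgf4, Serpind1 and Cndp1 had the same order. For Gpm6a the uninjured arrays read 11.96, 11.85, 11.38 and 11.83, so both strains began from a similar level.

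In others the strains differed before injury. Them5 read 8.49 and 7.93 in uninjured C57BL/6 but 5.56 and 5.43 in uninjured WldS, and all 12 injured arrays lay between 5.33 and 5.79, so its shared difference of -1.34 ± 0.34 combined changes of -2.57 to -2.75 in C57BL/6 and of -0.13 to 0.00 in WldS. The WldS arrays lay close to the dim filter of 5.37 already before injury, so a fall there could hardly be read. The strain difference of Them5 thus cannot be told apart from the difference before injury. Pttg1, the securin gene, read 13.11 and 13.11 against 10.45 and 10.24 and was not called in the shared comparison (0.62 ± 0.34). Of the 2 negative ones, Fgf5 read 6.00, 5.95, 6.00 and 6.24 before injury and rose by 2.76 to 3.26 in C57BL/6 at every day, with changes of -0.21 to 0.32 in WldS, and Cdk5r1, the activator of the neuronal kinase Cdk5, changed by 0.59 to 0.87 against -0.23 to -0.01. Fgf5 was still called in the shared comparison (1.58 ± 0.40, limma adjusted p = 0.00493).

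With 4 uninjured arrays, some calls rested on a single array. Of 191 called genes named here, 28 lost their call when 1 array or another was left out, all without a change of sign, and for each the array whose absence gave the highest limma adjusted p was an uninjured one. Without C57BL/6 uninjured replicate 1, the myelin genes Fa2h, Ncmap, Cmtm5, Cldn19 and Plekhb1 were at -1.71 (adjusted p = 0.116), -2.15 (0.0929), -1.39 (0.107), -1.06 (0.0935) and -0.79 (0.0739). Without the same array the clock genes Nr1d1 and Dbp were at -0.43 (0.111) and -1.12 (0.0862), Cdh2 at -0.58 (0.0781), Cd59a at -0.44 (0.058), Tagln at -0.84 (0.195), Tfap2a at 0.38 (0.186), Chil3 at 2.81 (0.119) and Cd22 at 1.02 (0.0862). Without WldS uninjured replicate 1, the pool of high index, the reference genes Rplp0, B2m, Rpl4 and Ldha were at 0.20 (0.298), 0.25 (0.127), 0.22 (0.157) and 0.56 (0.097), and Polr2i, Kit, Cd34, Nkg7 and Ddx58 at -0.53 (0.114), 0.29 (0.1), 0.45 (0.0907), 0.53 (0.0814) and 0.67 (0.0688). Without C57BL/6 uninjured replicate 2, Kcnj10 was at 1.99 (0.101), Uchl1 at -0.58 (0.0879) and Tubb3 at 0.87 (0.0573), and without WldS uninjured replicate 2, Csf1r was at 0.32 (0.104), Sox10 at -0.51 (0.0839) and Ttn at -0.48 (0.0594).

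List counts also moved with single arrays, here uninjured unless a day is named. The 4 genes of the compact myelin list called lower became 1 without either C57BL/6 array and 2 without WldS replicate 2, and the 6 circadian genes became 1 without C57BL/6 replicate 1 or WldS replicate 2. The 5 Schwann cell identity factors became 3 without any 1 of the 4 uninjured arrays. The 5 pericyte and smooth muscle genes became 2 without either C57BL/6 array and 3 without WldS replicate 2, and the 7 skeletal muscle genes became 4 without WldS replicate 2. Without WldS replicate 1, the 11 reference genes called higher became 7 and the 16 RNA polymerase II and Mediator genes became 9. The 5 genes of the latter list called lower became between 2 and 8 without any 1 of 12 of the 16 arrays. Without C57BL/6 replicate 1, the 8 proteasome genes called higher became 5, and the 6 channel genes called lower became 3 and the 4 called higher 2. The 8 cytosolic ribosomal genes called higher became between 2 and 5 without any 1 of 12 of the 16 arrays. Without WldS replicate 2 the 3 apoptosis and p53 genes called lower became 1, without C57BL/6 day 3 replicate 1 the 3 mitochondrial ribosomal genes called lower became 6, and without WldS day 14 replicate 2 the 3 oxidative phosphorylation genes called higher became 5.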

How the data were processed

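RNA of distal sciatic nerve stumps, pooled within each group, was hybridised to 16 Affymetrix mouse genome arrays, 2 per group. The deposited log2 values were used as given. GCOS 1.4, RMA, limma and Partek are named, with no role, per the submitters' processing notes. Nothing says whether the 2 pools of a group came from separate animals, so p-values rest on pools and not on mice. In the shared comparison their error also holds differences between days and between strains in the response.

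Of 45101 probe sets, 34945 carry 1 gene symbol in the platform annotation, 932 several and 9160 none, the other 64 being controls. Probe sets with 1 symbol gave 18193 genes, each read from its probe set of highest mean. Genes below the 30th percentile of all probe set means (5.37) were left out, which left 14545. The model, in limma 3.58.1 under R 4.3.3, had strain as a covariate and injured minus uninjured as the coefficient (two-sided, Benjamini-Hochberg adjustment over all genes, called below 0.05). The strain by injury interaction and an F test over the 6 injured groups were fitted to the same genes. On simulated data, shared changes of 0.5, 1, 2 and 3 were called in 60%, 84%, 100% and 100% of 50 genes each, and 8 of 14145 unchanged genes were called. The simulated arrays varied independently and few genes were changed, unlike in the measured data. These shares check the fit and do not carry over to the calls made here. The 3'/5' index is the mean over the Actb and Gapdh control probe sets of the log2 signal of the 3' minus the 5' probe set.

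The members and gene lists were chosen with earlier results of these data known. Genes were named by these rules. The first takes the 12 largest rises and 12 largest falls among called genes whose injured and uninjured arrays do not overlap, passing over clone names. The next takes, per list, up to 4 called members of the majority direction and 3 that went the other way or changed least. Reference genes, the 12 flattest genes of signal 8 or more, the 10 whose groups spread most within a shared shift of 0.25, the 8 largest interactions in each direction and genes with a printed promoter were also named. Cell type markers, and a gene marked as chosen after its values were seen, lie outside these rules. Motif matches use the RefSeq promoter table. Alternatives covered the model, normalization, dim filter, probe set rule, variance prior, array weights, threshold and omission of arrays, days or a strain. Both fits that use the 3'/5' index were added after the data had been seen.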

Additional observations from a re-analysis of the deposited data

Results flagged for a closer look

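An array far from the other 3 uninjured arrays was looked for, by the gap to the nearest array over the whole range, in the 52 list levels and in the 38 genes whose single arrays are given. It was found in 4, and chance marks about 1 in 20 such groups. The mean level of the adipocyte list was 8.51 in WldS uninjured replicate 1, below the other 3, and the reference gene Rplp0 read 11.98 in the same array, whose 3'/5' index was also high. In C57BL/6 uninjured replicate 2 the mean level of the spliceosome list was 10.15 and Ctss read 11.59, both above the other 3. The part of RNA quality in these values was not tested.

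The injury response differed between strains, by the limma interaction test, in 10 of the genes named (WldS response minus C57BL/6 response, log2). The difference was 3.21 for Cnmd, 2.59 for Them5, 2.52 for Pttg1, 2.46 for Fgf4, 2.09 for Gpm6a, 1.95 for Cndp1, 1.95 for Serpind1 and 1.94 for Rspo1. For Them5 it cannot be told apart from the uninjured level of WldS, which lay close to the dim filter. The difference was -2.98 for Fgf5 and -0.90 for Cdk5r1.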

How the results depend on the processing

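The counts called higher (3132) and lower (2637) stayed within 1.5 times under every alternative tried other than those named next. They were 1962 higher in C57BL/6 arrays alone, 1442 higher and 1127 lower in WldS arrays alone, and 1735 lower at an adjusted p below 0.01. Strain and day groups as a random block, within 1.5 times, gave 2302 higher and 1797 lower, or 28.2% of genes called against 39.7%. Median centring gave 2814 higher and 3101 lower and quantile normalization 2763 and 3160, so the majority of calls changed from higher (54.3% of called genes) to lower (47.6% and 46.6% higher). Leaving out 1 array at a time gave 2551 to 3306 higher, 2090 to 2815 lower, 1720 to 2516 that hardly moved, 9 to 58 with a strain difference and 4610 to 6495 that varied among the injured groups.

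Genes that hardly moved (2492) were 1034 with strain and day groups as a random block, 5077 with no filter on dim genes, 1285 with the stricter filter, 671 in C57BL/6 and 466 in WldS arrays alone, and 226 and 7463 with bounds of 0.15 and 0.5. Genes with a strain difference (20) were 645 with the 8 group means, 7 with the random block, 12 with the stricter filter, 43 with array weights, 13 at an adjusted p below 0.01, and 6 and 128 without day 7 and day 14. The 9 came without C57BL/6 uninjured replicate 1, the 58 without WldS uninjured replicate 2, and 34 without WldS day 14 replicate 2. Genes that varied among the injured groups (5661) were 2180 without day 3, 3559 without day 14 and 3618 at an adjusted p below 0.01.

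Of 191 called genes named in the text, 118 kept their call under every alternative. Changes of sign with a call occurred in 4 genes that were not called in the shared comparison. They were Cgref1 at -0.45 and Kcna1 at 0.55 without day 3, Emid1 at -0.80 without day 14 and Pttg1 at -0.64 in C57BL/6 arrays alone. The random block ended 16 of the 191 calls and the index as a covariate 25, among them Arg1 (2.70, adjusted p = 0.0821), Ccl2 (1.28, 0.0565) and Gzma (0.59, 0.106).

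Replicate numbers did not pair the samples, since the correlation of same-numbered deviations ran from -0.58 to 0.19 over 28 pairs of groups and exceeded 0.1 in 5. With the replicate block, 2998 genes were higher, 2539 lower and 2392 hardly moved, 15 differed between strains and 5214 varied among the injured groups.

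Signal over background limits dim genes, whose small differences enter the count that hardly moved. The number of arrays limits the rest, with 2 pools per group and 4 uninjured arrays on which every difference depends. A mean over the 6 injured groups also weights days and strains equally. Array medians lay between 6.42 and 6.49, so levels are relative to the array as a whole, and a shift common to all genes would not be seen. The cause of the changes listed here was not tested.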
